A study of Homo sapiens with 16 samples.

Results

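The genes described here encode the lysosome and the autophagy machinery that delivers cargo to it. A list of 43 such genes was taken, and a gene counted as a member where the platform annotation gave it a probe set with exactly 1 gene symbol. All 43 met that rule, out of 19775 genes named in this way. All 43 also passed the filter on dim signal, out of 13483 genes tested. By role they were 18 hydrolases and their activators, 5 genes of the lysosomal membrane and of sterol export, 4 of the proton pump, 7 of autophagy initiation, 4 of the ATG8 family, 3 autophagy receptors and 2 transcription factors. The autophagy genes (initiation, ATG8 family and receptors) numbered 14.

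Expression was measured on 16 arrays of 4 established human T-cell acute lymphoblastic leukaemia lines, named CEM, CUTL1, DND41 and Jurkat in the labels. Each line received either DMSO, the solvent control, or 1 uM PD-0332991 (palbociclib), an inhibitor of the kinases CDK4 and CDK6, for 15 h. Line and treatment together made 8 groups of 2 arrays, so each result for a line rests on 4 arrays of that line. Whether the 2 arrays of a group come from separate cultures is not stated in the labels. The p-values therefore reflect array-to-array spread, which may be technical. Each line is a single leukaemia-derived line grown in culture, and no line without disease was included.

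Lysosomes are acidic organelles in which hydrolases break down proteins, glycans and lipids. A proton pump in the membrane keeps the lumen acidic, and transporters return the products to the cytosol. In autophagy a membrane grows around cytosolic cargo under the control of a kinase complex and a lipid kinase complex, proteins of the ATG8 family are attached to it, and the closed vesicle fuses with a lysosome. The factors TFEB and TFE3 bind a short E-box sequence in many promoters of these genes, and are held in the cytosol when mTORC1 is active.

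Array medians lay between 28.5 and 31.2 intensity units, and the r between replicates was at least 0.993. The DND41 replicates with PD-0332991 were the least alike, a typical gene differing by 0.142 (log2) between them. The 18S ribosomal RNA signal averaged 13.19 with DMSO and 12.98 with PD-0332991 on the log2 scale (n = 8 and 8, exact permutation p = 0.177 within lines, two-sided, adjusted p = 0.531 over 3 measures). It was lower in both PD-0332991 arrays than in both DMSO arrays of CUTL1 and of DND41. Of 9 T-cell markers, all tested, 8 rose in the average over lines, with a median change of 0.35 on the log2 scale. Among all genes tested 26.7% rose and 20.0% fell there, with a median of 0.04. These shares also belong beside the marker counts that follow. The summed level of the T-cell markers ran from 14.62 to 15.28 with DMSO and from 14.85 to 15.47 with PD-0332991. Of 8 myeloid markers measured, 7 were below the dim level in every group, CD14, LYZ and MPO among them. Of 5 B-cell markers measured 2 were dim in every group and 2 rose, CR2 (0.54, adjusted p = 4.97e-05) and CD79A (0.25, 0.00411), and their summed level ran from 8.59 to 11.03 with DMSO and from 8.84 to 11.49 with PD-0332991. Of 7 fibroblast and endothelial markers 3 were dim in every group and 1 rose, PECAM1 (0.35, 0.00158), with summed levels of 8.42 to 10.67 and 8.53 to 11.02. None of the 3 epithelial markers tested, of 5 measured, was called in the average (limma), and none had an unadjusted p under 0.05 there. In CEM alone KRT8 was called lower (-0.44, adjusted p = 0.0206). The part of the 18S signal and of these markers in the results below was not tested.

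Averaged over the 4 lines, more of the lysosome and autophagy genes rose than fell with PD-0332991, and the rises were small. Of the 43, 23 rose, 4 fell and 16 did not pass the test (limma, Benjamini-Hochberg adjusted p under 0.05 over all genes tested). Among all genes tested, 26.7% rose and 20.0% fell in the same comparison, and these shares also belong beside the average counts of each role below. The median change was 0.21 for the 43 genes and 0.04 for all genes, on the log2 scale of PD-0332991 minus DMSO, and 34 of the 43 had a change above 0. The changes ran from -0.79 to 0.62, and no member reached a 2-fold average change. In 16 members (37.2%) both PD-0332991 arrays lay above both DMSO arrays in all 4 lines, against 10.7% of all genes. In 2 members (4.65%), GLA and GUSB, they lay below in all 4 lines, against 10.7% of all genes. In cultures measured in bulk, a change in RNA per cell and a change in the share of cells that express a gene cannot be told apart.

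**Figure D1:**
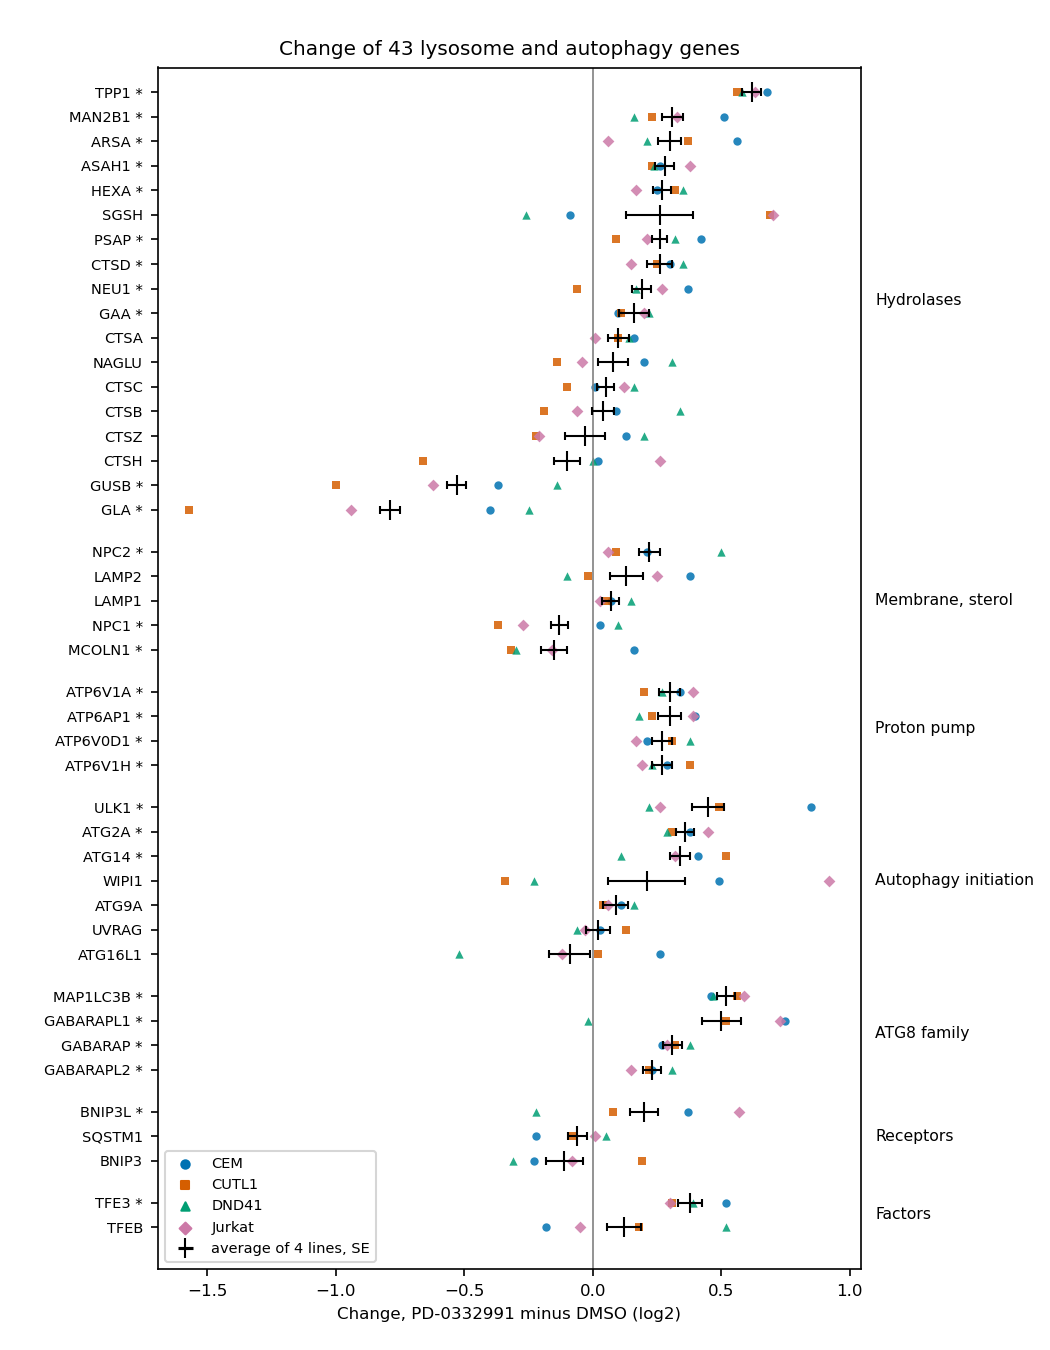
Change in level (PD-0332991 minus DMSO, log2) of the 43 genes, ordered by role; coloured points are the 4 lines, black marks the average with its standard error, and an asterisk marks genes called in the average. Most black marks lie right of 0, while GLA (-0.79) and GUSB (-0.53) lie furthest left and have the CUTL1 point as their lowest.

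The calls differed in how far they held under other settings. Of the 27 average calls, 13 held under every alternative that gave a value, and 25 held in each of the 16 fits that left out 1 array. With lines as the replicates, so that each line gave 1 difference, 15 members rose and 1 fell, against 9.35% and 9.53% of all genes, and GLA (adjusted p = 0.0517), GABARAPL1 (0.0539), GABARAPL2 (0.0536), PSAP (0.0609), ARSA (0.0777), GAA (0.139), NPC2 (0.158), NEU1 (0.193), MCOLN1 (0.329), BNIP3L (0.359) and NPC1 (0.422) lost their calls there. Without probe sets whose names end in _x_at or _s_at, which can match several transcripts, the calls of TPP1 (adjusted p = 0.0832), ASAH1 (0.0681), GAA (0.0564) and HEXA (0.407) were lost. With all probe sets averaged the call of NPC1 was lost and CTSC, NAGLU and LAMP2 were called higher in addition. Quantile normalization kept all 27 calls and added CTSA, LAMP1 and LAMP2 as higher. Leaving out 1 array added a call for SGSH (0.40, adjusted p = 0.00118, without DND41 PD-0332991 replicate 1), BNIP3 (-0.18, 0.00423, without DND41 PD-0332991 replicate 2), CTSH (-0.13, 0.0395, without CUTL1 PD-0332991 replicate 1), ATG9A (0.13, 0.0498, without DND41 DMSO replicate 1), LAMP1 (0.0345) and LAMP2 (0.0459) without Jurkat DMSO replicate 1 and 2 in turn, and CTSA without CEM DMSO replicate 1 (0.0256) or CUTL1 DMSO replicate 2 (0.0495).

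RefSeq promoter windows (GRCh38.p14), from 250 bases before to 50 after a gene's start, were found for 31 of the 43 genes, in 36 windows. The 12 genes without a window were ASAH1, ARSA, UVRAG, NAGLU, LAMP2, ATP6V1H, HEXA, ATP6V1A, SGSH, BNIP3L, CTSB and PSAP. The E-box core CACGTG, which reads the same on both strands, was present in 9 of the 36 windows (25%), in 7.26% of 35116 windows of all genes and in 9.25% of windows of the genes tested. The longer form TCACGTG, searched on either strand and containing the core, was present in 8 windows (22.2%), against 3.71% of all windows and 5.14% of those of genes tested. Windows of LAMP1 held 6 copies of the core, 1 of which spans the start and so lies outside the stretch printed here. Those of CTSA, GAA and MCOLN1 held 2 each, and those of ATG14, ATP6V0D1, BNIP3, CTSD and NEU1 held 1 each. The stretches directly upstream of the start are printed for the 8 genes with the longer form, because TFEB and TFE3 are known to bind it. They run 5′ to 3′ on the gene's strand, with the core and a T before it or an A after it in capitals. In order they lie at chr20:45891235-45891334 (plus strand), chr11:1763928-1764027 (minus strand), chr17:80101481-80101580 (plus strand), chr6:31862822-31862971 (minus strand), chr13:113297039-113297238 (plus strand), chr19:7522524-7522623 (plus strand), chr16:67481158-67481257 (minus strand) and chr14:55411831-55411930 (minus strand).
CTSA: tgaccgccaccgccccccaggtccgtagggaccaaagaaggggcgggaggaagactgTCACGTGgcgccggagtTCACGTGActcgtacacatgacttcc
CTSD: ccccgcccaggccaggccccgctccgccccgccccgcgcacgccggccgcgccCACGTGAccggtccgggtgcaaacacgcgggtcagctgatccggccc
GAA: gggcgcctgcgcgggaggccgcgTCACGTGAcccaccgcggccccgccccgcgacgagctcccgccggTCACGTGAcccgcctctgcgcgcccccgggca
NEU1: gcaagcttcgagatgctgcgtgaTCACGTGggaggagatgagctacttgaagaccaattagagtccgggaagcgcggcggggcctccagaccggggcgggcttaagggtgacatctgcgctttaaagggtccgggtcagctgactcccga
LAMP1: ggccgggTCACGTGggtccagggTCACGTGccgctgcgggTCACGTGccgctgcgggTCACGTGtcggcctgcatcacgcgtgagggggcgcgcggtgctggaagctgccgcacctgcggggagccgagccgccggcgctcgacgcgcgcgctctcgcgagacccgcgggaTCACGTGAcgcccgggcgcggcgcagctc
MCOLN1: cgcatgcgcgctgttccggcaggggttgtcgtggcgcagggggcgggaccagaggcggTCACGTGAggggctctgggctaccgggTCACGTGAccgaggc
ATP6V0D1: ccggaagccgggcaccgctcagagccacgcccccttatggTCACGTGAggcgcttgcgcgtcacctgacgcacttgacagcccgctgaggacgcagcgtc
ATG14: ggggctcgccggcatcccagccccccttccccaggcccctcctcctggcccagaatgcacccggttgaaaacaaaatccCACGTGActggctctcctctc

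For contrast, the same stretch is printed for the hydrolase gene and the ATG8 gene with the largest average rises and for the gene with the largest fall. These are TPP1 at chr11:6619423-6619522 (minus strand), MAP1LC3B at chr16:87392236-87392335 (plus strand) and GLA at chrX:101407926-101408025 (minus strand), and no CACGTG was present in their windows. Only the exact letters were searched. Close variants, such as catgtg and cacatg in the TPP1 stretch or cacctg in that of MAP1LC3B, were not counted.
TPP1: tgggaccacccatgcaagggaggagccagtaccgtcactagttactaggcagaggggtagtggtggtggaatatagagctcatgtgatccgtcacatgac
MAP1LC3B: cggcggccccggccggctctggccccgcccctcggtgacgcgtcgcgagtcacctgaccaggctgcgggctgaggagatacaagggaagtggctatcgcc
GLA: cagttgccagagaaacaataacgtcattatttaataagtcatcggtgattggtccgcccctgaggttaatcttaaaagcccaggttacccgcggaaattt

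The median change was not higher among members with the core in their window. The 9 members with it had a median change of 0.16 (from -0.15 to 0.34), with 5 higher, 1 lower and 3 not called. The 22 members with a window and no core had a median of 0.22 (from -0.79 to 0.62), with 11 higher, 3 lower and 8 not called. Over all genes tested the medians were 0.02 for 1351 genes with the core and 0.03 for 9475 without it. For other motifs, searched on either strand, shares are set against those of all windows and then of windows of genes tested. The E2F-like word TTCCCGC was present in the windows of ATG16L1 and CTSD (5.56%, against 6.55% and 9.27%). The E2F-like word TTCGCGC was present in those of ATG2A and CTSH (5.56%, against 2.24% and 3.28%). A further such word, TTGGCGC, was present in 0 of the 36, against 3.04% and 4.19%. At least 1 of these E2F-like words was present in 4 windows (11.1%, against 11% and 15.4%). The forkhead word GTAAACA was present in 0 of the 36, against 3.42% and 2.67%. A match is a description of letters and not a binding site.

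Among the 18 hydrolase genes 9 rose and 2 fell, with a median change of 0.17. TPP1, the lysosomal tripeptidyl peptidase, had the largest average rise of all members. Its log2 levels were 9.26 and 9.19 with DMSO against 9.93 and 9.90 with PD-0332991 in CEM, and 8.90 and 8.94 against 9.49 and 9.48 in CUTL1. They were 8.99 and 8.88 against 9.58 and 9.45 in DND41, and 8.74 and 8.63 against 9.27 and 9.36 in Jurkat. The arrays of the treatments did not overlap in any line. The average change was 0.62 (SE 0.037, 1.53-fold, adjusted p = 8.63e-08), and the lines lay between 0.56 and 0.68. The other TPP1 probe sets gave smaller average changes of 0.47, 0.31 and 0.17, and the last of these stood at -0.13 in CEM.

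GLA, which encodes alpha-galactosidase A, an enzyme of glycolipid breakdown, fell most. Its log2 levels in CUTL1 were 9.83 and 9.95 with DMSO and 8.32 and 8.33 with PD-0332991. In Jurkat they were 9.50 and 9.32 against 8.48 and 8.45, in CEM 9.85 and 9.88 against 9.47 and 9.46, and in DND41 9.40 and 9.46 against 9.24 and 9.12. The DMSO means of the lines spanned 0.48, and the treatments did not overlap in any line. The change was -1.57 in CUTL1 (2.96-fold lower), -0.94 in Jurkat (1.92-fold lower), -0.40 in CEM and -0.25 in DND41. The average change was -0.79 (SE 0.038, adjusted p = 1.32e-08). The DND41 fall (adjusted p = 0.0319) was not called without DND41 DMSO replicate 1 (0.0791), DND41 DMSO replicate 2 (0.160) or DND41 PD-0332991 replicate 2 (0.138).

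GUSB, the beta-glucuronidase gene, followed the same order of lines. In CUTL1 its log2 levels were 9.79 and 9.82 with DMSO against 8.78 and 8.83 with PD-0332991, and in Jurkat 9.52 and 9.49 against 8.83 and 8.93. In CEM they were 10.47 and 10.38 against 9.98 and 10.12, and in DND41 10.20 and 10.25 against 10.14 and 10.05. The treatments did not overlap in any line, but they lay closest in DND41. The changes were -1.0 in CUTL1, -0.62 in Jurkat, -0.37 in CEM and -0.14 in DND41, and the last was not called (adjusted p = 0.186). The average was -0.53 (SE 0.036, adjusted p = 2.59e-07), and -0.21 when it was averaged with a second GUSB probe set that lay below the dim level.

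The other hydrolase genes that rose changed by 0.16 to 0.31. They included MAN2B1, an alpha-mannosidase of glycoprotein breakdown (0.31, adjusted p = 5.78e-05), ARSA, the sulfatase that acts on sulfatide (0.30, 0.000179), and ASAH1, acid ceramidase (0.28, 4.97e-05). HEXA, a subunit of beta-hexosaminidase, changed by 0.27, CTSD, the main aspartic protease of the lysosome, by 0.26 and NEU1, a sialidase, by 0.19. PSAP, the precursor of the saposins that present lipids to these enzymes, rose by 0.26 (SE 0.029, adjusted p = 1.66e-05). In CEM PSAP stood at 12.37 and 12.36 with DMSO and at 12.80 and 12.77 with PD-0332991, while in CUTL1 it went from 13.15 and 13.18 to 13.27 and 13.25. ARSA was spread across lines, from 0.56 in CEM to 0.06 in Jurkat. GAA, the glycogen-degrading acid glucosidase, changed by 0.16 at an adjusted p of 0.0496, and this call held without CEM DMSO replicate 1, CEM PD-0332991 replicate 1 or DND41 PD-0332991 replicate 2 but was lost without any 1 of the other 13 arrays (0.0528 to 0.117).

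The 4 cysteine protease genes among the members were not called in the average. CTSB changed by 0.04 (SE 0.041), CTSC by 0.05, CTSZ by -0.03 and CTSH by -0.10. CTSC depended on the probe set, since its others gave 0.14, 0.30 and 0.27, and with all of them averaged it was called higher (0.19, adjusted p = 0.000143). CTSH, an aminopeptidase, split by line. In CUTL1 its log2 levels were 7.30 and 7.14 with DMSO and 6.70 and 6.42 with PD-0332991, a change of -0.66 (adjusted p = 0.000453). In Jurkat they were 6.95 and 6.88 against 7.21 and 7.13 (0.26, adjusted p = 0.0808), and in CEM and DND41 the changes were 0.02 and 0.00. CTSA, the carboxypeptidase that protects NEU1, changed by 0.10 (adjusted p = 0.059), and NAGLU, of heparan sulfate breakdown, by 0.08 (0.276, and 0.0248 with all probe sets averaged). SGSH, another heparan sulfate enzyme, stood at 0.69 in CUTL1 and 0.70 in Jurkat but -0.09 in CEM and -0.26 in DND41, where its PD-0332991 arrays lay at 4.43 and 5.52 (average 0.26, SE 0.13, adjusted p = 0.133).

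Of the 5 membrane and sterol genes, 1 rose and 2 fell. LAMP1 and LAMP2, the most abundant proteins of the lysosomal membrane, changed by 0.07 (SE 0.033, adjusted p = 0.0952) and 0.13 (0.129). Other LAMP2 probe sets gave 0.21, 0.28 and 0.03, and with all of them averaged LAMP2 was called higher (0.16, adjusted p = 0.0191). Quantile normalization called both higher (LAMP1 0.09, adjusted p = 0.0456, and LAMP2 0.16, 0.0457). LAMP1 arrays covered only 11.82 to 12.15 on the log2 scale over all 8 groups. NPC2, the luminal carrier that hands cholesterol to NPC1, rose by 0.22 (SE 0.040, adjusted p = 0.000874). In DND41 NPC2 levels went from 11.01 and 11.10 to 11.62 and 11.49, a change of 0.50, against 0.06 to 0.21 in the other lines. NPC1, the membrane exporter, fell by 0.13 on the log2 scale (SE 0.034, adjusted p = 0.00788). Its levels in CUTL1 were 8.95 and 8.96 with DMSO and 8.62 and 8.54 with PD-0332991, in Jurkat 8.47 and 8.53 against 8.30 and 8.17, in CEM 7.85 and 7.94 against 7.93 and 7.92, and in DND41 8.25 and 8.28 against 8.35 and 8.38. The PD-0332991 arrays lay below those with DMSO in CUTL1 and Jurkat, overlapped them in CEM and lay above them in DND41. With all NPC1 probe sets averaged, the others of which were dim, the average change was not called (adjusted p = 0.749), nor was it with lines as the replicates (0.422). MCOLN1, a calcium channel of the lysosome, changed by -0.15 (adjusted p = 0.0269), with 0.16 in CEM and -0.16 to -0.32 in the other lines. Its call was lost with lines as the replicates (0.329). It was also lost without CEM DMSO replicate 1, CEM PD-0332991 replicate 2, CUTL1 DMSO replicate 2, CUTL1 PD-0332991 replicate 1, DND41 DMSO replicate 2, DND41 PD-0332991 replicate 1, Jurkat DMSO replicate 2 or Jurkat PD-0332991 replicate 2 (adjusted p = 0.051 to 0.0702).

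All 4 proton pump genes rose, by 0.27 to 0.30, the narrowest range of any role. They were ATP6V1A, the catalytic subunit of the pump (0.30, SE 0.041, adjusted p = 8.65e-05), ATP6AP1, an accessory subunit (0.30, 0.00017), ATP6V0D1, a subunit of the membrane sector (0.27, 0.000114), and ATP6V1H, a regulatory subunit (0.27, 8.17e-05). For ATP6V1A the log2 levels were 10.90 and 10.95 with DMSO and 11.36 and 11.18 with PD-0332991 in CEM, and 10.89 and 10.76 against 11.04 and 11.01 in CUTL1. They were 10.74 and 10.74 against 11.00 and 11.01 in DND41, and 10.54 and 10.70 against 10.97 and 11.05 in Jurkat. In each of these 4 genes both PD-0332991 arrays lay above both DMSO arrays in every line. None of the 4 was called in the test of a difference between lines.

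Of the 7 initiation genes 3 rose and 4 did not pass the test. ULK1, the kinase that starts autophagy when mTORC1 is inactive, rose by 0.45 (SE 0.063, 1.37-fold, adjusted p = 9.47e-05). Its log2 levels were 6.84 and 6.78 with DMSO and 7.66 and 7.67 with PD-0332991 in CEM, and 7.84 and 7.70 against 8.24 and 8.27 in CUTL1. They were 7.56 and 7.69 against 7.88 and 7.88 in Jurkat, and 6.85 and 6.78 against 7.28 and 6.79 in DND41. DND41 was the only line whose treatments overlapped for ULK1. ATG2A, which moves lipids into the growing membrane, rose by 0.36 (SE 0.035, adjusted p = 6.21e-06), with 0.29 to 0.45 in the lines. ATG14, which directs the lipid kinase complex to autophagy, rose by 0.34 (SE 0.038, adjusted p = 1.61e-05), with 0.52 in CUTL1 and 0.11 in DND41.

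UVRAG, the partner that replaces ATG14 in the other form of that complex, changed by 0.02 (adjusted p = 0.796), and ATG9A, the membrane protein of the seed vesicles, by 0.09 (0.14). ATG16L1, which places ATG8 proteins on the membrane, averaged -0.09, with 0.26 in CEM and -0.52 in DND41. WIPI1, a reader of the lipid kinase product, averaged 0.21 with the largest standard error of any member (0.151). Its arrays in Jurkat lay at 5.23 and 6.05 with DMSO and 6.63 and 6.5 with PD-0332991, and in CUTL1 at 5.21 and 5.83 against 4.82 and 5.55. In CUTL1 the WIPI1 replicates lay further apart than the treatment means.

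All 4 genes of the ATG8 family rose, and their median change of 0.40 was the highest of the roles. MAP1LC3B, the LC3 gene most used as an autophagosome marker, rose by 0.52 (SE 0.035, 1.44-fold, adjusted p = 2.09e-07). Its log2 levels were 9.82 and 9.78 with DMSO and 10.27 and 10.25 with PD-0332991 in CEM, 9.68 and 9.74 against 10.34 and 10.20 in CUTL1, 9.90 and 9.93 against 10.36 and 10.41 in DND41, and 9.96 and 10.07 against 10.59 and 10.62 in Jurkat. No treatments overlapped, and the line changes lay between 0.46 and 0.59. GABARAP rose by 0.31 (SE 0.036, adjusted p = 2.06e-05) and GABARAPL2 by 0.23 (SE 0.035, 0.000233), both with the PD-0332991 arrays above in every line. GABARAPL1 rose by 0.50 (SE 0.076, 1.41-fold, adjusted p = 0.000215) but not evenly. Its levels went from 6.12 and 6.30 to 7.11 and 6.82 in CEM, from 7.20 and 7.34 to 7.87 and 7.70 in CUTL1, and from 7.0 and 7.33 to 7.93 and 7.86 in Jurkat. In DND41 they were 6.82 and 6.64 with DMSO and 6.91 and 6.52 with PD-0332991, so the treatments overlapped there. Second probe sets gave 0.42 for MAP1LC3B and 0.56 for GABARAPL1.

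**Figure D2:**
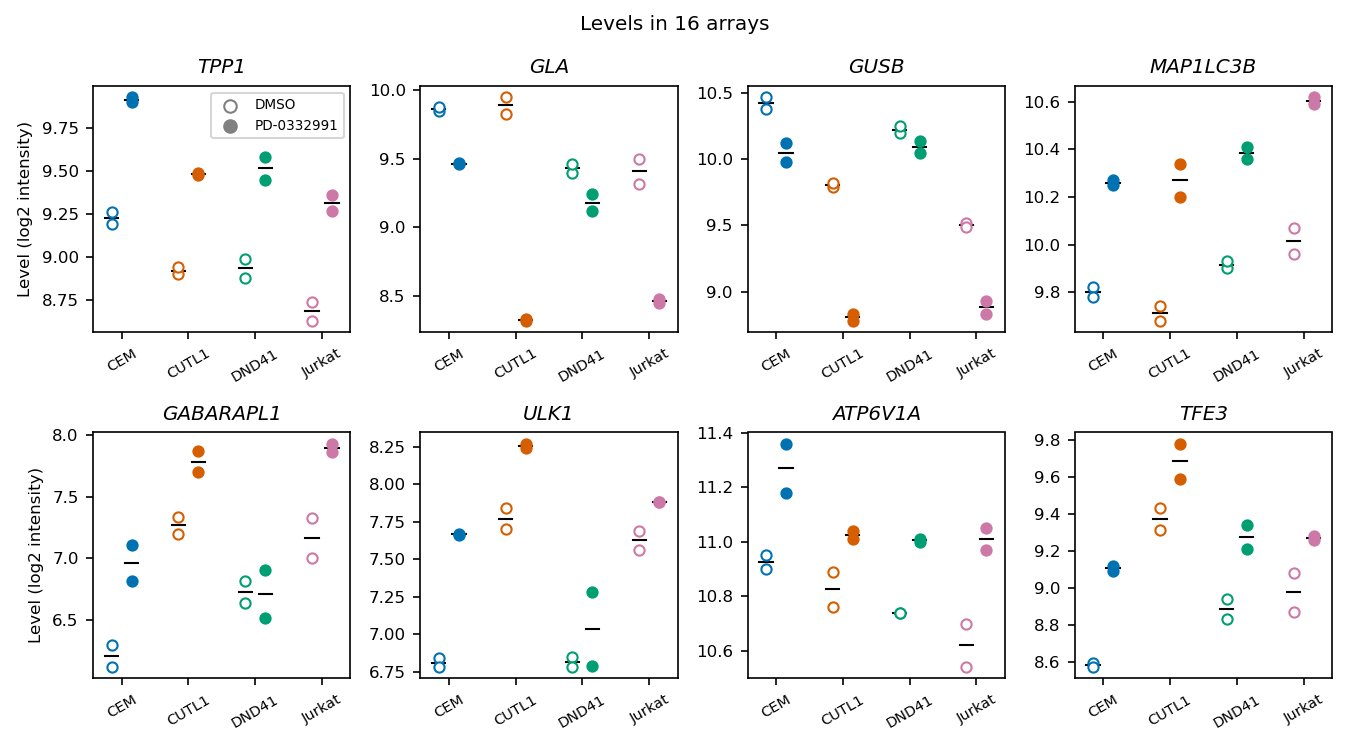
Log2 level in each of the 16 arrays for 8 genes, with open circles for DMSO, filled circles for PD-0332991 and a short line at the mean of each pair. For TPP1, MAP1LC3B, ATP6V1A and TFE3 the filled circles are above the open ones in all 4 lines, for GLA and GUSB below, and for GABARAPL1 and ULK1 the treatments overlap in DND41 only.

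The 3 receptors, which link cargo to ATG8 proteins, had a median change of -0.06. SQSTM1, which carries ubiquitinated proteins, averaged -0.06 (SE 0.038, adjusted p = 0.215) over changes of -0.22 in CEM, -0.08 in CUTL1, 0.05 in DND41 and 0.01 in Jurkat. BNIP3, a receptor for mitochondria, averaged -0.11 (adjusted p = 0.257), and in DND41 it was near or below the dim level of 4.88. BNIP3L, the second mitochondrial receptor, rose by 0.20 (SE 0.053, adjusted p = 0.00902). Its log2 levels were 10.35 and 10.52 with DMSO and 10.99 and 11.00 with PD-0332991 in Jurkat, and 10.96 and 10.78 against 11.29 and 11.19 in CEM. In CUTL1 they were 10.23 and 10.20 against 10.38 and 10.20, and in DND41 11.49 and 11.50 against 11.13 and 11.42. The DND41 arrays with PD-0332991 were thus both below those with DMSO, but a second BNIP3L probe set gave 0.28 in DND41 where this one gave -0.22.

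TFE3 rose and TFEB did not pass the test in the average. TFE3 levels went from 8.59 and 8.57 to 9.12 and 9.09 in CEM, from 9.31 and 9.43 to 9.59 and 9.78 in CUTL1, from 8.83 and 8.94 to 9.21 and 9.34 in DND41, and from 8.87 and 9.08 to 9.26 and 9.28 in Jurkat. The PD-0332991 arrays were above in every line, and the average change was 0.38 (SE 0.046, 1.30-fold, adjusted p = 3.36e-05). A second TFE3 probe set gave 0.19 in the average and 0.03 in CUTL1, and the remaining ones were dim. With all of them averaged the average call held, but TFE3 was called in no single line. The adjusted p there was 0.299 in CEM, 0.218 in CUTL1, 0.0502 in DND41 and 0.206 in Jurkat (limma). TFEB averaged 0.12 (SE 0.066, adjusted p = 0.175), with levels of 6.51 and 6.79 against 7.11 and 7.22 in DND41 and overlapping treatments in CEM and Jurkat. A second TFEB probe set stood at -0.11 in the average and -0.22 in DND41, where the first gave 0.52.

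In each single line fewer of the genes were called higher than in the average, which rests on all 16 arrays, and the same was so among all genes. Changes lay above 0 for 37 of the 43 genes in CEM, 30 in CUTL1, 32 in DND41 and 32 in Jurkat, against 34 in the average. In CEM 21 of the 43 genes rose and 3 fell, against 16.5% and 11.6% of all genes. In CUTL1 14 rose and 5 fell, against 14.6% and 12.7%, and in Jurkat 15 rose and 3 fell, against 15.6% and 11.4%. In DND41 16 rose and 3 fell, against 11.1% and 17.1%. That DND41 split depended on scaling, since quantile normalization gave 25 higher and 1 lower and median centring 11 and 4, with all-gene medians in DND41 of 0.057 and -0.061 against 0.014 as deposited. Median changes of the 43 genes were 0.25 in CEM, 0.13 in CUTL1, 0.18 in DND41 and 0.17 in Jurkat, against 0.01, 0.05, 0.01 and 0.05 for all genes. In CUTL1 and DND41 the 18S signal was lower with PD-0332991 as well, at 12.80 and 12.67 against 13.28 and 13.17, and at 12.45 and 12.75 against 13.21 and 13.26.

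The 18 hydrolase genes had median changes of 0.18 in CEM, 0.10 in CUTL1, 0.20 in DND41 and 0.16 in Jurkat, with 8, 4, 6 and 5 higher and 2, 3, 1 and 2 lower. The 14 autophagy genes had medians of 0.32, 0.20, 0.08 and 0.27 in the same order, with 8, 7, 4 and 7 higher and 1, 0, 1 and 0 lower. The shares of all genes to set beside these counts are those given above for each line. The autophagy median was lowest in DND41 as deposited, with quantile normalization, with median centring and with all probe sets averaged. The line with the highest hydrolase median depended on the setting, since median centring gave 0.21 in CEM against 0.13 in DND41 and averaging of probe sets 0.18 in Jurkat against 0.16 in DND41. The order of lines was not tested for either role. Called higher in all 4 lines were 6 members (14.0%, against 3.65% of all genes), TPP1, ASAH1, ATG2A, MAP1LC3B, GABARAP and TFE3, and of these TPP1 and MAP1LC3B kept the call in every line when any 1 array was left out. With all probe sets averaged, TFE3 was called in no single line and ASAH1 was not called in CEM or DND41. Without _x_at and _s_at probe sets ASAH1 was called in no single line, and TPP1 kept its call in DND41 only. The TPP1 changes there were -0.13 in CEM (limma adjusted p = 0.55), 0.28 in CUTL1 (0.196) and 0.09 in Jurkat (0.73). MAP1LC3B has only _s_at probe sets, so that setting gave no value for it. Only GLA was called lower in all 4 (2.33%, against 5.65% of all genes).

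Single-line calls rest on 2 arrays a group. Of the 80 calls of members in single lines, 37 held in each of the 16 fits that left out 1 array and 43 did not. The count of higher members in CEM was 12 without PD-0332991 replicate 1 and 13 without DMSO replicate 2. In CUTL1 it was 9 without DMSO replicate 1 and 8 without either PD-0332991 replicate, in DND41 it was 7 without DMSO replicate 1, and in Jurkat it was 8 without either PD-0332991 replicate. Among the named calls that were lost in this way were SQSTM1 in CEM (adjusted p = 0.0467, up to 0.282), ATG16L1 in DND41 (0.0317, up to 0.179), TFEB in DND41 (0.0136, up to 0.118) and WIPI1 in Jurkat (0.0415, up to 0.323). The DND41 change of TFEB was lost without DND41 DMSO replicate 1 or PD-0332991 replicate 2, and that of ATG16L1 without any 1 of the 4 DND41 arrays. The call of WIPI1 was lost without either DMSO replicate of CEM or DND41, without Jurkat DMSO replicate 1 and without either Jurkat PD-0332991 replicate. The call of SQSTM1 was lost without either DMSO replicate of CEM, CUTL1 or DND41, either PD-0332991 replicate of CUTL1 or Jurkat, or CEM PD-0332991 replicate 1.

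**Figure D3:**
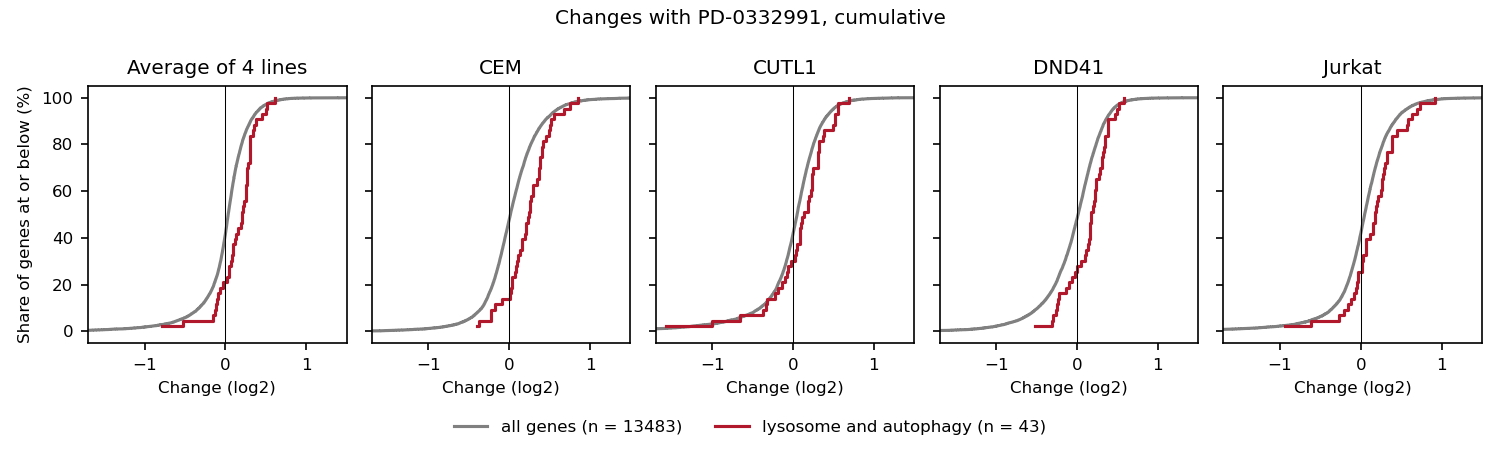
Cumulative share of genes (%) at or below each change (PD-0332991 minus DMSO, log2) in the average and in each line, for the 43 lysosome and autophagy genes (red) and all 13483 genes tested (grey). The red curve lies to the right of the grey one over most of its range in each panel, with medians of 0.21 against 0.04 in the average, and meets or crosses it at the low end, where GLA and GUSB lie.

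The test of a difference in response between lines called 6 of the 43 genes, GLA, GUSB, CTSH, NPC1, BNIP3L and CTSB. That is 14.0% of the members, a share near the 12.6% of all genes. GLA (adjusted p = 0.000181) and CTSH (0.00761) were called under every alternative that gave a value. The count was 3 without DND41 DMSO replicate 1, 10 without DND41 PD-0332991 replicate 2 and 12 without Jurkat DMSO replicate 2.

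Each line's response was also set against the mean of the other 3 lines. In CUTL1 5 members differed (4.58% of all genes did), each of them lower than elsewhere. They were GLA (-1.04, adjusted p = 0.000137), CTSH (-0.75, 0.00386), GUSB (-0.62, 0.00203), NEU1 (-0.33, 0.0466) and NPC1 (-0.32, 0.0385). In DND41 9 members differed (15.0% of all genes did). The change was higher or less negative there than in the other lines for 5 lysosomal genes, with GLA at 0.72 (adjusted p = 0.00149), GUSB at 0.53 (0.00443), CTSB at 0.39 (0.0226), NPC2 at 0.38 (0.0231) and NPC1 at 0.30 (0.0271), as did TFEB at 0.54 (0.0391). The autophagy genes GABARAPL1 (-0.68, adjusted p = 0.0279), BNIP3L (-0.55, 0.0171) and ATG14 (-0.31, 0.0361) stood lower. Of the genes named here, NEU1, NPC2, TFEB, GABARAPL1 and ATG14 were not called in the test of a difference between lines. Second probe sets of TFEB and BNIP3L changed in the opposite direction in DND41 (-0.22 and 0.28), and that of GABARAPL1 gave -0.2. CEM differed for GLA (0.52, adjusted p = 0.0101), against 3.03% of all genes. In Jurkat 0 members passed the limma test, 7 had an unadjusted p under 0.05, and 2.47% of all genes passed.

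Across the 43 genes the changes of CEM, CUTL1 and Jurkat were correlated at Pearson r of 0.61 to 0.70, and those of DND41 with the other lines at 0.19 to 0.41. Without GLA and GUSB (n = 41) the ranges were 0.43 to 0.55 and 0.01 to 0.30. Over all genes tested they were 0.69 to 0.77 and 0.47 to 0.65. These values describe genes measured on the same arrays, which are not independent.

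In the DMSO controls the lines differed in most of these genes. Levels in DMSO differed between lines for 38 of the 43 genes, against 71.2% of all genes. The exceptions were CTSD, CTSZ, ARSA, GABARAP and TFEB. The range of line means had a median of 0.75 over the members and 0.55 over all genes tested, on the log2 scale.

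BNIP3 had the widest range. Its DMSO arrays lay at 9.93 and 10.04 in Jurkat, 8.10 and 8.20 in CEM, 6.80 and 6.93 in CUTL1 and 4.86 and 4.78 in DND41. The lines were fully separated, and in DND41 the signal was below the dim level, so the distance to that line has no exact fold. CTSH followed, at 9.97 and 9.83 in CEM, 9.04 and 8.89 in DND41, 7.30 and 7.14 in CUTL1 and 6.95 and 6.88 in Jurkat, a 7.92-fold range. CTSB ran the other way for CEM, with 8.12 and 8.03 there against 9.95 and 10.06 in CUTL1, 9.81 and 9.85 in DND41 and 9.30 and 9.26 in Jurkat. CUTL1 and DND41 were the nearest neighbours in that order, and their CTSB arrays did not overlap. SGSH stood at 7.35 and 7.57 in CUTL1, 6.21 and 6.07 in Jurkat, 5.58 and 5.63 in CEM and 5.25 and 5.21 in DND41.

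Set against the mean of the other 3 lines in DMSO, CEM had 13 members higher and 18 lower (21.4% and 24.3% of all genes), CUTL1 13 and 13 (22.0% and 25.7%), DND41 14 and 11 (23.9% and 22.4%), and Jurkat 13 and 15 (28.9% and 21.5%). Jurkat had 3 of 18 hydrolase genes higher and 10 lower, and DND41 had 10 higher and 4 lower. In Jurkat the largest differences below the other lines were in CTSH (-1.78), CTSA (-0.74), GUSB (-0.65), LAMP2 (-0.65) and PSAP (-0.59), while ASAH1 stood 0.61 above. Jurkat also had 3 of the 4 ATG8 genes higher, including GABARAPL2 (0.42) and GABARAPL1 (0.42). CEM had 3 of the 4 pump genes higher and 5 of the 7 initiation genes lower, and CUTL1 had 3 pump genes lower. ULK1 in DMSO stood below the other lines in CEM and DND41 (-0.59 in each) and above them in CUTL1 (0.68) and Jurkat (0.49). Its change with PD-0332991 was 0.85 in CEM, 0.22 in DND41, 0.49 in CUTL1 and 0.26 in Jurkat.

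**Figure D4:**
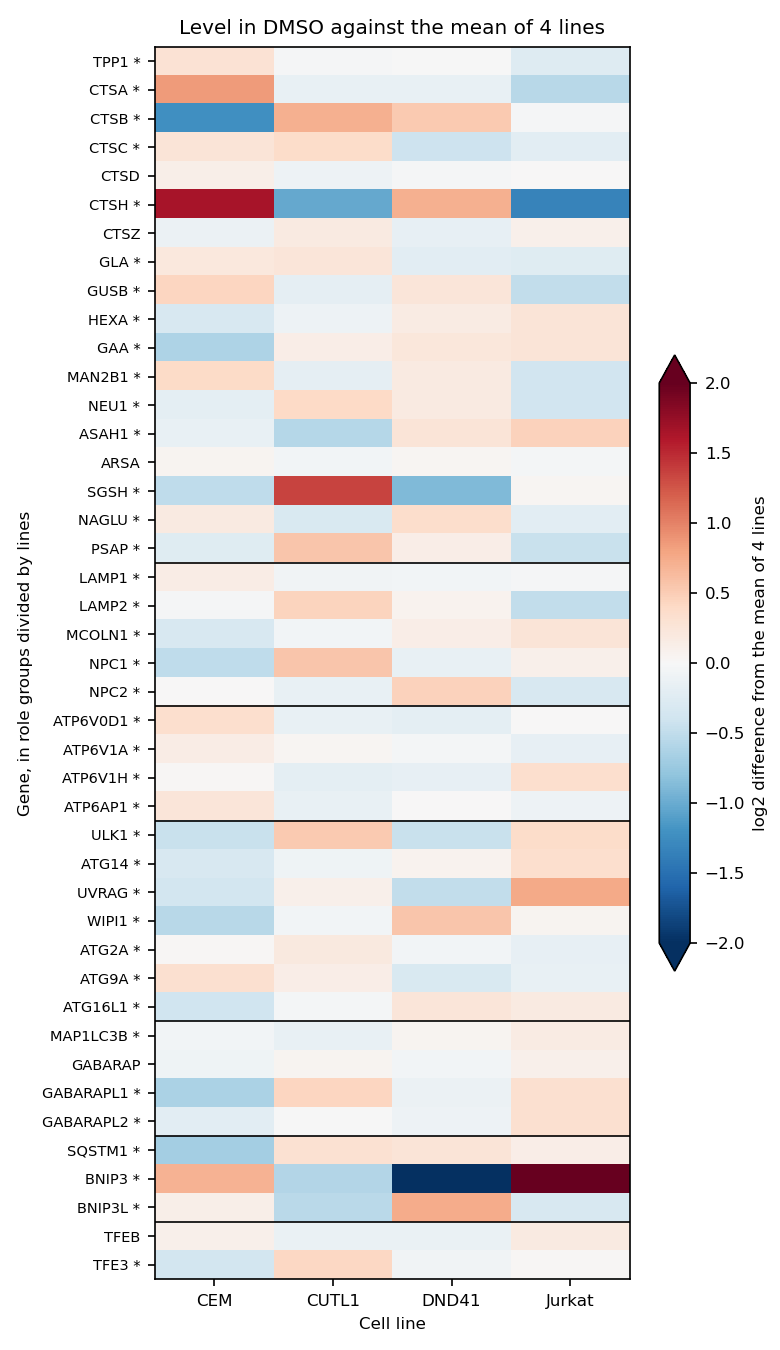
Log2 level of each of the 43 genes in DMSO relative to the mean of the 4 lines (2 arrays a line); red is above and blue below that mean, colours end at 2 in either direction, and an asterisk marks genes that differed between lines. BNIP3 and CTSH show the strongest contrasts, Jurkat against DND41 and CEM against Jurkat.

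Beyond the 43 genes, 139 other genes of the pathway were listed and 124 of them were tested. Of these 67 rose and 12 fell, 45 did not pass the test, and the median change was 0.15. The shares of all genes to set beside these counts, and beside those of each list that follows, are again 26.7% higher and 20.0% lower, with a median of 0.04. Among 23 other hydrolases 14 rose and 2 fell, with GGH, the enzyme that trims folate polyglutamates, at -1.36 (SE 0.069, adjusted p = 1.99e-08), LIPA, lysosomal acid lipase, at 0.42 (5.36e-07) and GM2A, a lipid activator, at 0.55 (6.29e-07). GGH, like GLA and GUSB, changed most in CUTL1 (-2.09) and in the same direction in all 4 lines. Of the cysteine proteases in this list, singled out after their values were seen, CTSS (0.49, adjusted p = 1.16e-05), CTSO (0.79, 2.85e-06) and CTSW (0.17, 0.013) rose, and CTSO was below the dim level in 3 groups. CTSL, CTSF and LGMN were tested in the same list and are not described here, so these 3 do not stand for the class. Among 12 other pump genes 7 rose and none was called lower, among them ATP6V0A1 (0.25), ATP6V1G1 (0.24) and ATP6V0E1 (0.20). Of 18 membrane genes 7 rose and 1 fell, with LAPTM5 at 0.51 (adjusted p = 5.03e-07), SLC17A5, the sialic acid exporter, at 0.35 and LAMP3 at -0.57, the last below the dim level in 3 groups. Of 16 sorting genes 10 rose and 1 fell, with IGF2R, the receptor that carries hydrolases to the lysosome, at 0.48 (1.75e-05), and the vesicle tethering genes VPS33A and VPS11 at 0.42 and 0.23.

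Of 27 other core genes of autophagy 13 rose and 5 fell, with WDR45, a reader of the same lipid as WIPI1, at 0.58 (SE 0.033, adjusted p = 4.98e-08), TECPR1 at 0.55 (1.75e-06) and BECN1, the scaffold of the lipid kinase complex, at 0.45 (5.72e-06). Changes in WDR45 were 0.50 to 0.63 in the lines. Of 9 other receptors 7 rose, with NBR1, a relative of SQSTM1, at 0.58 (SE 0.042, adjusted p = 4.53e-07), NCOA4, the ferritin receptor, at 0.25 and CALCOCO2 at 0.19. Of 19 genes of upstream control at the lysosome 9 rose and 3 fell. RRAGA, a GTPase that recruits mTORC1, rose by 0.30 (SE 0.033, adjusted p = 1.53e-05), while its relative RRAGD (-0.58, 1.73e-06) and FNIP2 (-0.47, 5.9e-05) fell.

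More than 1 probe set was available for 25 of the 43 genes, and in 18 of them more than 1 was at or above the dim level. Their average changes had the same sign in 13 of the 18. In CTSB, LAMP1, SGSH, SQSTM1 and TFEB they did not, and none of these 5 genes was called in the average. For LAMP1 the changes were 0.07, 0.07, 0.04 and a value that rounds to 0, so its difference in sign rests on that last value.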

How the data were processed

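RNA of 16 samples was amplified from 5 ng and hybridised to Affymetrix U133 Plus 2.0 arrays, per the labels' protocols. The deposited values are intensities on a linear scale, made with RMA per the submitters' processing notes, whose version is not given in the sources used here. Since the design had assumed log2 values, log2 was taken first, with no pseudocount or further scaling. Of 54675 probe sets, 41097 had 1 symbol in the platform annotation, and each gene was represented by the one with the highest mean. A gene was tested if in 1 or more lines it averaged 4.88 or higher, the log2 median of the deposited values, and 6292 dim genes were set aside. Models with 8 group means were fitted with limma 3.58.1 in R 4.3.3 (lmFit, eBayes), with Benjamini-Hochberg adjustment over 13483 genes and calls at an adjusted p under 0.05. Tests are two-sided, and the model was tested on simulated data. Each fold change is 2 to the power of the log2 difference. Promoter words and figures were made with Python 3.11.15, pandas 2.3.3, numpy 2.4.6 and matplotlib 3.10.9. The number of arrays limits the precision. The members, the lists and the rule for other named genes (the 3 with the smallest p in each list among those called) were chosen with earlier results of these data known. Alternatives covered scaling, the dim filter, the choice of probe set, a pseudocount of 16, the replicate number as a block, lines as replicates and leaving out each array.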

Additional observations from a re-analysis of the deposited data

Results flagged for a closer look

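In 6 genes the response to PD-0332991 differed between the 4 lines in the limma F test on the interaction (adjusted p under 0.05). For GLA the adjusted p was 0.000181, with changes of -1.57 in CUTL1, -0.94 in Jurkat, -0.40 in CEM and -0.25 in DND41. For GUSB it was 0.00189, with -1.0, -0.62, -0.37 and -0.14 in the same order, and it was 0.116 with all probe sets averaged. For CTSH it was 0.00761, with -0.66 in CUTL1 against 0.26, 0.02 and 0.00 in Jurkat, CEM and DND41. For NPC1 it was 0.0179, with -0.37 in CUTL1, -0.27 in Jurkat, 0.03 in CEM and 0.10 in DND41, and it was 0.0746 with the replicate block, 0.462 with all probe sets averaged, 0.0529 without CUTL1 PD-0332991 replicate 2 and 0.0577 without DND41 DMSO replicate 1. For BNIP3L it was 0.0226, with 0.57 in Jurkat, 0.37 in CEM, 0.08 in CUTL1 and -0.22 in DND41, and it was 0.0538 with all probe sets averaged. Without DND41 DMSO replicate 1 or 2 the BNIP3L value was 0.0692 or 0.0704, and without Jurkat PD-0332991 replicate 1 or 2 it was 0.0575 or 0.0608. For CTSB it was 0.0434, with 0.34 in DND41, 0.09 in CEM, -0.06 in Jurkat and -0.19 in CUTL1, and CTSB was called in 7 of 24 alternatives, with adjusted p up to 0.152. In 4 of the 16 fits that left out 1 array the CTSB call held.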

How the results depend on the processing

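The average counts of 23 higher and 4 lower lay between 22 and 24 and between 3 and 5 when each array was left out, and the median changes between 0.15 and 0.19 for hydrolase genes and between 0.20 and 0.27 for autophagy genes. The same fits gave 12 to 22 higher and 2 to 4 lower in CEM, 8 to 16 and 4 to 5 in CUTL1, 7 to 17 and 0 to 3 in DND41, and 8 to 18 and 2 to 3 in Jurkat. They gave 3 to 12 members for the difference between lines and 34 to 39 for DMSO. Quantile normalization gave 25 higher and 1 lower in DND41, and no dim filter 1 lower there. With all probe sets averaged, 1 was lower in CEM and 1 in Jurkat. Without _x_at and _s_at probe sets, which left fewer members measured, higher counts were 12 in the average, 10 in CEM, 7 in CUTL1, 9 in DND41 and 7 in Jurkat, lower counts were 3 in CUTL1 and 1 in DND41, and 24 members differed in DMSO. In that setting TPP1 in CEM (-0.13, adjusted p = 0.550) and ASAH1 in DND41 (-0.03, 0.895) changed sign. With each line as 1 replicate 15 were higher and 1 lower in the average. The cause of the shifts under scaling, the dim filter and averaging of probe sets was not tested.

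Arrays were treated as not paired by replicate number. Same-numbered arrays of a line had deviations correlated at 0.076 in CEM, 0.195 in CUTL1, -0.108 in DND41 and 0.105 in Jurkat. With a single value for each line, these correlations cannot settle whether same-numbered arrays were paired. With the replicate block 22 members rose and 4 fell in the average, with 18 and 2 in CEM, 12 and 5 in CUTL1, 13 and 2 in DND41 and 14 and 3 in Jurkat, and 4 differed between lines. The number of arrays limits what could be detected in single lines, and genes near the dim level, such as BNIP3 and SGSH in DND41, have signal close to background.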
